A study of Mus musculus with 15 samples.

Results

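Among the genes that gate entry into S phase, 8 were followed across germinal centre B cells of different zone and affinity: the D-type cyclin genes Ccnd2 and Ccnd3, the kinase genes Cdk4 and Cdk6, the inhibitor genes Cdkn1a, Cdkn1b and Cdkn2c, and the retinoblastoma gene Rb1. They were chosen by gene symbol, through array probe sets that carry exactly 1 symbol, and the probe set with the highest mean stood for a gene. By that rule 7 of the 8 were measured, out of 19938 genes in all. Cdkn1a, which encodes the inhibitor p21, had 1 probe set, which carried a second symbol, so no value is given for it.

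The cells were SwHEL B cells, which carry a knocked-in receptor for hen egg lysozyme and the CD45.1 marker. They had been transferred into female C57BL/6J mice, which carry CD45.2, and the recipients were then immunized with sheep red blood cells carrying HEL3x, a lysozyme mutant. On day 10 the donor-derived spleen cells that were IgG1+ and CD38 low were sorted into a light zone gate (CD86 high, CXCR4 low) and a dark zone gate (CXCR4 high, CD86 low), each split into high and low affinity. All 4 groups therefore started from the same knocked-in receptor and share the immunogen, the day and the IgG1 class. They differ by the sort in zone and in the affinity of the receptor. High-affinity dark zone cells (Dzhi) gave 4 arrays, low-affinity dark zone cells (Dzlo) 4, high-affinity light zone cells (Lzhi) 3 and low-affinity light zone cells (Lzlo) 4. The sample descriptions carry experiment codes, read here as experiments A to D. The labels do not say whether the arrays of a group came from separate mice, so the spread and the p-values cover these samples, and part of that spread may be technical.

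D-type cyclins are made in response to growth signals and bind the kinases CDK4 and CDK6, and the complexes phosphorylate the retinoblastoma protein, which then releases E2F factors to switch on replication genes. Inhibitors of the INK4 family, such as p18 from Cdkn2c, bind the kinases and keep the cyclins off, whereas p21 from Cdkn1a and p27 from Cdkn1b bind cyclin-kinase complexes. In germinal centres, B cells are selected in the light zone and divide in the dark zone, and cyclin D3 is known for its part in the divisions of the dark zone. Cyclin D2 is known as an early target of B cell receptor and Myc signals.

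The upstream regions of the kinase genes are shown because both kinases answer to the same cyclins while their regions differ in a motif bound by Myc, the E-box CACGTG. Each sequence is the 250 bases before the start site, from RefSeq build GRCm38.p6, 5′ to 3′ on the strand of the gene. Capitals mark matches to CACGTG and to the E2F-type motif TTTNNCGC.
Cdk4, chr10:127063285-127063534, plus strand: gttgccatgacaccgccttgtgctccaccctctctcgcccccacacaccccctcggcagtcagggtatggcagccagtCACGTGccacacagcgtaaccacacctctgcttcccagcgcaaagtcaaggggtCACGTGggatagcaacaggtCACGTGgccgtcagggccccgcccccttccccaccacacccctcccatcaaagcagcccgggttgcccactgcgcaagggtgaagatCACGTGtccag
Cdk6, chr5:3343643-3343892, plus strand: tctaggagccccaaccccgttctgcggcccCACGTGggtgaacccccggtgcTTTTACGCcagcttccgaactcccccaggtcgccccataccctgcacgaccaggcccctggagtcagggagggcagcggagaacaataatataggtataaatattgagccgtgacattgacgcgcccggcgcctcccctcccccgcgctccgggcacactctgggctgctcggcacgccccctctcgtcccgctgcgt
Cdk4 held 4 copies of CACGTG, and 7 of the 32851 promoters in the table (0.0213%) held 4 or more. Cdk6 held 1 copy and 1 match to TTTNNCGC. The Cdk6 window lies inside the bounds of its gene (chr5:3341004-3531008), whereas the Cdk4 window ends right before its gene (chr10:127063535-127067288). The windows thus differ in their place relative to the gene as well as in the motif. On both strands, CACGTG was found in 6.02% of all promoters in windows of that length, the E-box CAGGTG in 17.2%, TTTNNCGC in 4.28% and the forkhead-type motif GTAAACA in 3.17%. The table held 9 promoters of 6 of the 8 genes, and a match is only a match of letters.

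Cd86, the surface protein used for the light zone gate, was 1.04 ± 0.11 (SE) higher in the light zone on the log2 scale (limma, adjusted p = 0.00255). Cxcr4, used for the dark zone gate, was at -0.69 ± 0.16 and did not pass (adjusted p = 0.152). Of 12 germinal centre B cell markers 10 were measured, and their mean level per array lay between 10.10 and 10.55. Markers of other cells were uneven: the mean of 10 measured neutrophil markers was 8.99 in Lzlo replicate 3 and 7.81 in Dzlo replicate 3, both of experiment D, and between 5.13 and 6.68 elsewhere. The mean of 8 measured T cell markers was 7.04 in Lzlo replicate 3, 6.24 in Lzlo replicate 4 and at most 5.81 on the other arrays. Lzlo replicate 3 was thus high for both lists.

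Between the zones, over both affinities, none of the 7 genes passed limma's test across all 19938 genes, against 31 genes (0.155%) that did. In limma's unadjusted test 1 of the 7, Ccnd2, had a p under 0.05, against 873 genes (4.38%) in all. Of the 7, 4 had a difference above 0 and 3 below, with a median of 0.10 beside -0.01 for all genes. Within high affinity the test passed 3 genes (0.015%) and within low affinity 2 (0.01%), and none of the 7 was among them. With the experiment as a block in the fit, 90 genes passed over both affinities, 11 within high affinity and 30 within low affinity. None of the 7 was among them. Ccnd2 alone of the 7 had an unadjusted limma p under 0.05 in that fit, where the share of all genes was not counted. In a bulk sample, a different share of cells that express a gene and a different amount of its RNA per cell cannot be told apart.

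Ccnd2, the cyclin D2 gene, came nearest to a call. Its log2 level in Dzhi replicates 1 to 4 was 7.43, 7.26, 6.27 and 7.10, and in Dzlo replicates 1 to 4 it was 6.52, 6.58, 6.74 and 6.78. In Lzhi replicates 1, 2 and 4 it was 8.0003, 8.05 and 6.88, and in Lzlo replicates 1 to 4 it was 7.28, 7.49, 7.94 and 7.15. Every Lzlo array lay above every Dzlo array, which held for 0.988% of all genes, whereas Lzhi replicate 4, at 6.88, lay below 3 of the 4 Dzhi arrays. That array and Dzhi replicate 3, both of experiment C, were the lowest of their groups. The order of the group means was Dzlo (6.65 ± 0.12, SD, n = 4), Dzhi (7.02 ± 0.52, n = 4), Lzlo (7.47 ± 0.35, n = 4) and Lzhi (7.64 ± 0.66, n = 3). Neighbours in that order differed by less than the SD of at least 1 of them.

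The light zone level of Ccnd2 was above the dark zone level by 0.72 ± 0.21 (SE) on the log2 scale, or 1.65-fold, with a 95% interval of 0.27 to 1.17. The unadjusted limma p was 0.00397 and the adjusted p 0.4, so the difference did not pass over all genes. Light zone and dark zone arrays of the same experiment and affinity form 7 pairs, and Ccnd2 was higher in the light zone array in 7 of 7, by 0.37 to 1.21. The pairs of experiment B, at 0.79 and 0.92, rest on merging the 2 spellings of that code. Whether these are 1 experiment was not established. A gene higher in all 7 pairs was not rare: 2.06% of all genes were. With the experiment as a block the difference was 0.76 ± 0.17 and the adjusted p 0.111. With the experiment D arrays of Dzlo and Lzlo left out, which carry the highest neutrophil marker levels, it was 0.66 ± 0.22. Over 28 alternatives it ranged from 0.60 to 0.91 and its adjusted p from 0.0902 to 0.804.

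The difference in Ccnd2 had the same direction in both affinities, at 0.63 ± 0.31 in high-affinity cells (adjusted p = 0.999) and 0.81 ± 0.28 in low-affinity cells (adjusted p = 1). The high-affinity value rested on few arrays: it was 0.38 without Dzhi replicate 3 and 1.01 without Lzhi replicate 4. Their difference, the interaction of zone and affinity, was -0.18 ± 0.42 with a 95% interval of -1.08 to 0.71. That interval holds an effect in either affinity that is larger than in the other.

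**Figure D1:**
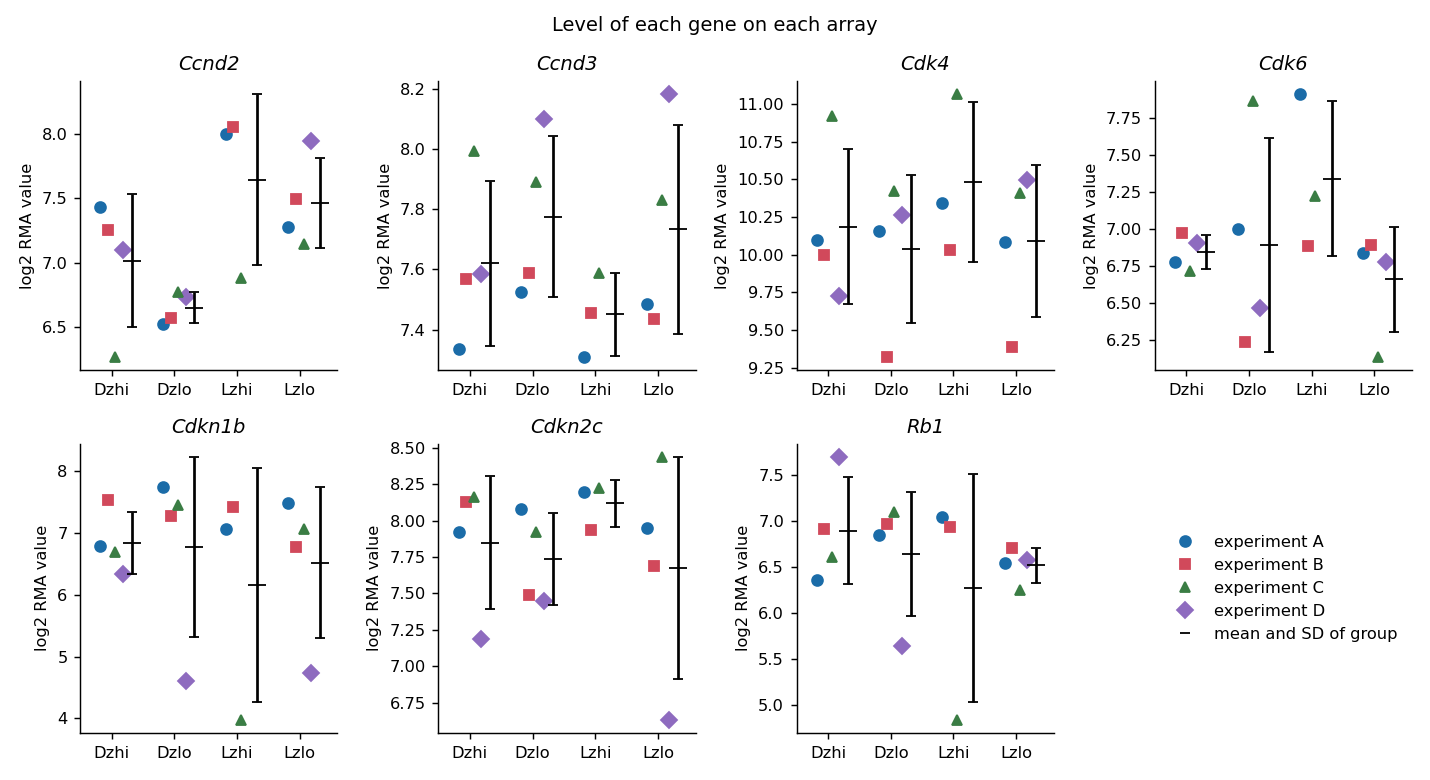
Log2 RMA level of each of the 7 measured genes (y axis, own scale per panel) on each array, by group (x axis), with markers for the experiment and the mean and SD of the group beside them. Ccnd2 is higher in the light zone groups, Cdk4 is highest on the experiment C array in Dzhi, Dzlo and Lzhi, and Cdkn1b has 3 arrays far below the rest (3.98, 4.60 and 4.73).

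Ccnd3, the cyclin D3 gene, had the smallest spread of the 7, with an SD within groups of 0.277 beside a median of 0.242 over all genes. Its levels were 7.34, 7.57, 7.99 and 7.58 in Dzhi and 7.52, 7.59, 8.10 and 7.89 in Dzlo. In the light zone they were 7.31, 7.45 and 7.59 in Lzhi and 7.49, 7.43, 8.18 and 7.83 in Lzlo. All 4 groups overlapped, and the highest levels were on the experiment D arrays of the low-affinity groups. The light zone level stood at -0.11 ± 0.14 relative to the dark zone (95% interval -0.40 to 0.19, adjusted p = 1). The lower end of that interval is a level 0.756 times that of the dark zone. Ccnd3 was lower in the light zone in 6 of 7 pairs, by at most 0.41.

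Cdk4, which encodes a catalytic partner of the D-type cyclins, read 10.10, 10.00, 10.92 and 9.73 in Dzhi and 10.16, 9.32, 10.26 and 10.42 in Dzlo. The light zone arrays read 10.34, 10.03 and 11.07 in Lzhi and 10.09, 9.38, 10.49 and 10.41 in Lzlo. The array of experiment C was the highest of its group in Dzhi, Dzlo and Lzhi and that of experiment B the lowest in Dzlo, Lzhi and Lzlo, and the groups overlapped. The zone difference was 0.17 ± 0.24 (95% interval -0.35 to 0.69, adjusted p = 1). Within pairs of the same experiment it lay between -0.07 and 0.24 and was above 0 in 5 of 7, and the standard error fell to 0.148 once the experiment was a block.

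Cdk6, which encodes the second D-cyclin kinase, read 6.78, 6.97, 6.72 and 6.90 in Dzhi and 7.002, 6.23, 6.47 and 7.87 in Dzlo. The light zone arrays read 7.91, 6.89 and 7.22 in Lzhi and 6.84, 6.89, 6.77 and 6.13 in Lzlo. Dzhi was tight (SD 0.12) and Dzlo wide (SD 0.72), where replicate 4 was the high array. Its zone difference was 0.13 ± 0.23 (95% interval -0.36 to 0.62, adjusted p = 1), and pairs of the same experiment ran from -1.73 to 1.13. Without Lzhi replicate 1, its highest array, the difference was -0.01.

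**Figure D2:**
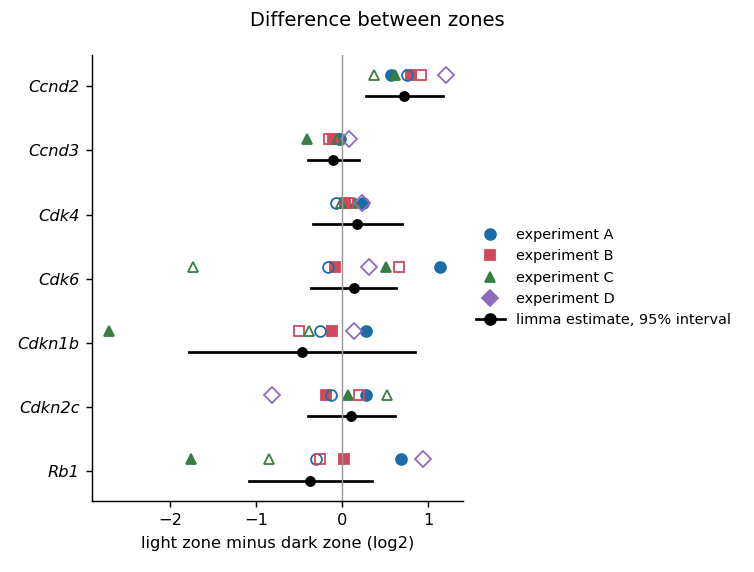
Light zone minus dark zone on the log2 scale (x axis) for each measured gene (y axis). Coloured markers are pairs of arrays from the same experiment, filled for high and open for low affinity, and black points are limma estimates with 95% intervals. All 7 pairs of Ccnd2 lie above 0, and the intervals of the other 6 genes include 0.

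Cdkn1b, the p27 gene, varied within groups more than 99.7% of genes, with an SD of 1.31. The probe set that the rule takes read 6.79, 7.54, 6.69 and 6.34 in Dzhi and 7.75, 7.28, 4.60 and 7.46 in Dzlo. In the light zone it read 7.07, 7.42 and 3.98 in Lzhi and 7.49, 6.78, 4.73 and 7.07 in Lzlo. The 3 low values stood on Dzlo replicate 3 and Lzlo replicate 3, both of experiment D, and on Lzhi replicate 4 of experiment C. The zone difference was -0.47 ± 0.61 with a 95% interval of -1.78 to 0.84 (adjusted p = 1), and without Lzhi replicate 4 it was 0.08.

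A second Cdkn1b probe set did not follow the first. It read 6.50, 6.26, 6.21 and 6.30 in Dzhi and 6.55, 6.26, 6.34 and 6.08 in Dzlo. Its light zone levels were 5.84, 6.07 and 6.15 in Lzhi and 6.26, 6.03, 7.40 and 6.96 in Lzlo. None of the 3 arrays with low values on the first probe set was low on the second, and the high ones there were Lzlo replicates 3 and 4, the arrays with the highest T cell marker levels, 7.04 and 6.24. The part of other cells in these readings was not tested. By the second probe set the zone difference was 0.03 ± 0.17 (adjusted p = 1), so the direction between the zones turned with the probe set.

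**Figure D3:**
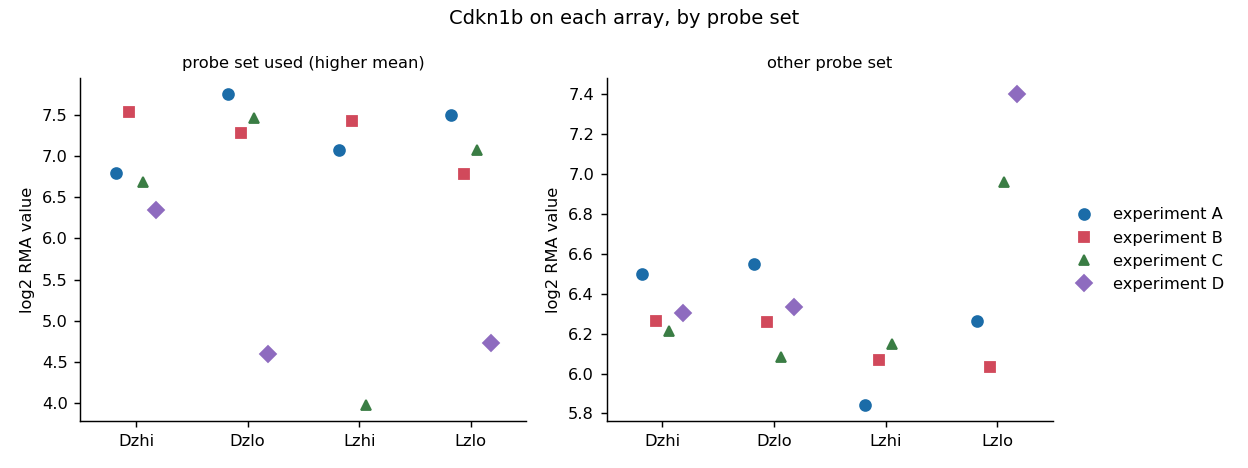
Log2 RMA level (y axis, own scale per panel) of both Cdkn1b probe sets on each array, by group (x axis), with markers for the experiment. The 3 low arrays of the probe set used, at 3.98, 4.60 and 4.73, are not low on the other one, where Lzlo replicates 3 and 4 are the highest at 7.40 and 6.96.

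Cdkn2c, the p18 gene, read 7.92, 8.13, 8.16 and 7.18 in Dzhi and 8.08, 7.49, 7.45 and 7.92 in Dzlo. Its light zone levels were 8.20, 7.94 and 8.23 in Lzhi and 7.95, 7.69, 6.63 and 8.44 in Lzlo. The lowest array of each of the 3 groups that include experiment D was the one from that experiment. The zone difference was 0.10 ± 0.24 (95% interval -0.40 to 0.61, adjusted p = 1) and -0.01 ± 0.14 with the experiment as a block, which turns its sign.

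Rb1, the gene of the protein that the kinases phosphorylate, read 6.36, 6.91, 6.60 and 7.69 in Dzhi and 6.85, 6.96, 5.63 and 7.09 in Dzlo. In the light zone it read 7.04, 6.93 and 4.84 in Lzhi and 6.54, 6.70, 6.58 and 6.25 in Lzlo. Dzlo replicate 3 and Lzhi replicate 4, low for Cdkn1b too, were the lowest arrays here. The zone difference was -0.37 ± 0.33 with a 95% interval of -1.09 to 0.35 (adjusted p = 1). Without Lzhi replicate 4 the value lay nearest to 0 among the arrays left out in turn, at -0.01.

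Several of these genes differed between experiments. As deviations from the group mean, Cdk4 averaged 0.50 over the 4 arrays of experiment C and -0.52 over those of experiment B, while A and D were at -0.03 and 0.05. Cdkn2c averaged -0.67 over the 3 arrays of experiment D and 0.34 over those of C. Ccnd2 was at -0.43 in C and between 0.11 and 0.22 in the others, and Ccnd3 at -0.23 in A and 0.25 in D. Cdkn1b averaged -1.49 in D and 0.71 in A. These are averages of 3 or 4 arrays whose groups differ, given as description.

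**Figure D4:**
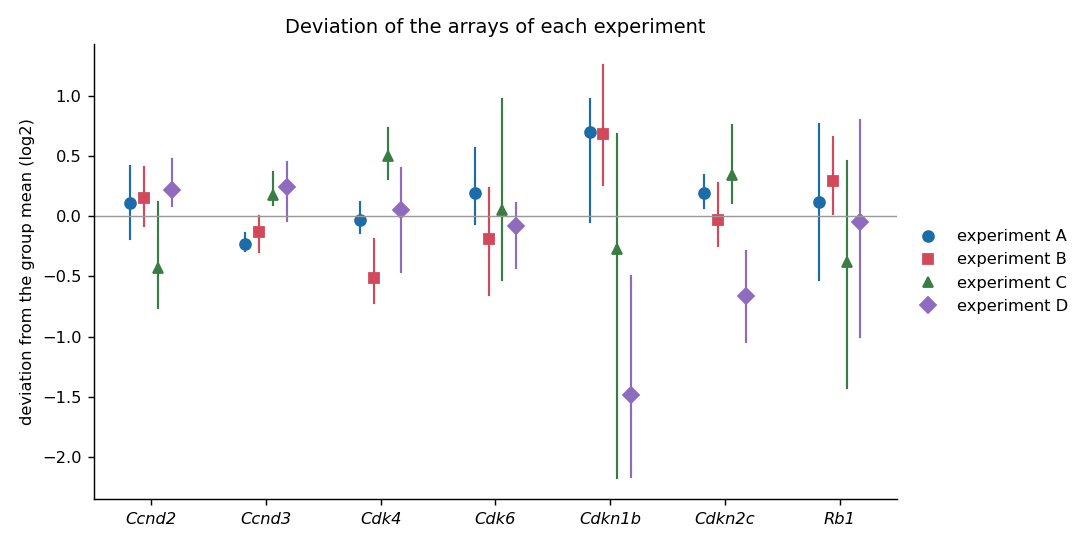
Deviation from the group mean on the log2 scale (y axis) for each measured gene (x axis), as the mean over the arrays of an experiment (markers) with the lowest and highest array (lines). Cdk4 is at 0.50 in experiment C and -0.52 in B, and Cdkn2c is at -0.67 in D.

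The next comparison was of high-affinity with low-affinity cells in the light zone. None of the 7 genes passed, and none of the 19938 did (0%), although 797 genes (4%) had an unadjusted limma p under 0.05, none of them among the 7. Of the 7, 4 were above 0 and 3 below. Cdk6 had the largest difference, 0.68 ± 0.34 or 1.60-fold (95% interval -0.04 to 1.40, adjusted p = 1.00), with pairs of the same experiment at 1.07, -0.01 and 1.09. Lzlo replicate 4, at 6.13, was the lowest array of its group, and without Lzhi replicate 1 the difference was 0.39. Cdk4 was higher in the high-affinity array in 3 of 3 pairs, by 0.26 to 0.66, as were 15.7% of all genes, while 12% were lower in all 3. The fitted difference of Cdk4 was 0.39 ± 0.36 (95% interval -0.38 to 1.15), and it ran from 0.094 without Lzhi replicate 4 to 0.61 without Lzhi replicate 2. With the experiment as a block, Cdk4 was at 0.40 ± 0.22 and Cdk6 at 0.65 ± 0.35 (limma, adjusted p = 0.9996 for both).

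The cyclin genes showed smaller differences in the light zone, Ccnd2 at 0.18 ± 0.31 (95% interval -0.48 to 0.84) and Ccnd3 at -0.28 ± 0.20 (95% interval -0.72 to 0.15). Cdkn2c was at 0.44 ± 0.35 (95% interval -0.30 to 1.19), with 0.094 without Lzlo replicate 3 and 0.70 without Lzlo replicate 4. Rb1 was at -0.25 ± 0.49 (95% interval -1.30 to 0.81) and Cdkn1b at -0.36 ± 0.90 (95% interval -2.29 to 1.56). By its second probe set Cdkn1b was at -0.65 ± 0.26 (limma, unadjusted p = 0.0249, adjusted p = 0.9996), and the Lzlo arrays with the highest T cell markers were the high ones. The probe set that the rule takes had an unadjusted limma p of 0.690. Since no Lzhi array came from experiment D, the Lzlo array with the highest neutrophil and T cell markers has no partner here. Without it, Ccnd2 was at 0.34, Cdk6 at 0.72 and Ccnd3 at -0.13. For Ccnd3 that was the value nearest to 0 among the arrays left out in turn.

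In the dark zone the comparison of affinities again passed none of the 7 and none of all genes (0%), with 320 genes (1.6%) at an unadjusted limma p under 0.05, none of them among the 7. Of the 7, 5 were above 0 and 2 below. Ccnd2 was at 0.36 ± 0.28 (95% interval -0.25 to 0.97) and higher in the high-affinity array in 3 of 4 pairs, with the experiment C pair at -0.51. Ccnd3 was at -0.16 ± 0.19 (95% interval -0.56 to 0.25) and Cdkn2c at 0.11 ± 0.32 (95% interval -0.58 to 0.80). The kinase genes were at 0.15 ± 0.33 for Cdk4 (95% interval -0.56 to 0.85) and -0.05 ± 0.31 for Cdk6 (95% interval -0.72 to 0.62). None of the 7 had the same sign in all 4 pairs, which 3.94% of genes had upward and 3.25% downward. Rb1 was at 0.26 ± 0.45 (95% interval -0.72 to 1.23) and Cdkn1b at 0.07 ± 0.83 (95% interval -1.71 to 1.85), and both turned below 0, to -0.08 and -0.66, without Dzlo replicate 3, their lowest array in that group.

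**Figure D5:**
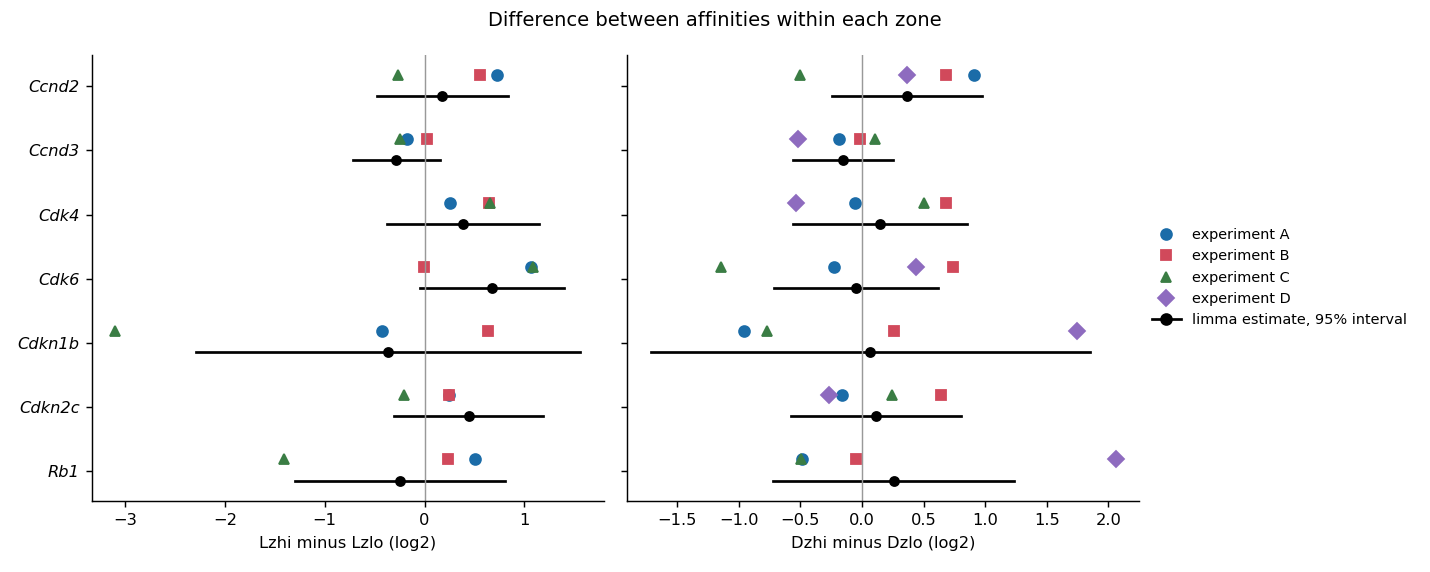
High minus low affinity on the log2 scale (x axis) for each measured gene (y axis), in the light zone at left and the dark zone at right. Coloured markers are pairs of arrays from the same experiment and black points are limma estimates with 95% intervals. Every interval includes 0, and Cdk4 is above 0 in all 3 light zone pairs.

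Whether affinity acted differently in the light and dark zones was asked by the interaction, which passed none of the 7 and none of all genes (0%). It left 266 genes (1.33%) at an unadjusted limma p under 0.05, none of them among the 7. Cdk6 had the largest value, 0.73 ± 0.46 (95% interval -0.26 to 1.71, adjusted p = 1). The others lay between -0.50 (Rb1) and 0.33 (Cdkn2c).

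Around these genes, 6 lists of the pathway were read in the same fit, and no gene of any list passed in any of the 6 comparisons. The genes of a list were read on the same arrays, so counts of their directions are not separate observations. The other D-type cyclin, INK4 and CIP/KIP genes (5 of 5 measured) had 2 above 0 and 3 below between the zones, Cdkn2b at -0.21 ± 0.09. Pocket proteins, E2F factors with their Tfdp partners and the Lin genes of the DREAM complex (16 of 16) were split 8 and 8 between the zones. Their median was 0.01. Genes of cyclin E, cyclin A and CDK2 (10 of 10) had 4 above and 6 below with a median of -0.09, among them Ccna2 at -0.28 ± 0.11. E2F-driven replication genes (21 of 22) had 13 above and 8 below, with Tyms, of thymidylate synthesis, at 0.40 ± 0.14. Over all genes, 48% lay above 0 in this comparison.

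Genes of G2 and mitosis, which act after the step that the D-type cyclins gate, were below 0 in the light zone in 18 of 20 measured. Their median was -0.45, and 11 of them had an unadjusted limma p under 0.05, as did 4.38% of all genes. Cdc20, an activator of the anaphase-promoting complex, was at -0.81 ± 0.17 (adjusted p = 0.124) and Cenpa, the centromeric histone, at -0.75 ± 0.17 (adjusted p = 0.147). With the experiment D arrays of Dzlo and Lzlo left out the median was -0.45 as well, and 1 gene of the list passed, Ccnb2 at -0.81 (adjusted p = 0.0388), among 42 genes that passed in that fit. In high-affinity cells alone 12 of the 20 were below 0, with a median of -0.15 and 1 at an unadjusted limma p under 0.05, as were 2.8% of all genes. In low-affinity cells 19 of the 20 were below 0, with a median of -0.66 and 11 at such a p, as were 3.53% of all genes. For the interaction 20 of 20 were above 0, with a median of 0.56, and none passed. Of all genes, 48.8% lay above 0 in high affinity, 48.6% in low affinity and 49.7% for the interaction. Without those experiment D arrays the low-affinity median was -0.59, with 19 of 20 below 0. The interaction then had 19 of 20 above 0 and a median of 0.46. Between the zones over both affinities, Ccnd2 thus stood on the other side of 0 from most mitotic genes in the same arrays. Among the 10 measured upstream regulators, 5 were above 0 and 5 below. Myc was at 0.72 ± 0.21 (limma, adjusted p = 0.422) and Foxo3 at 0.45 ± 0.15 (adjusted p = 0.624). Whether either bears on Ccnd2 was not tested.

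For affinity in the light zone, 20 of 20 genes of G2 and mitosis were above 0 with a median of 0.70. Of these, 8 had an unadjusted limma p under 0.05, as did 4% of all genes. With the experiment D arrays of Dzlo and Lzlo left out the median was 0.45, with 20 of 20 above 0 again. Replication genes were above 0 in 18 of 21 (median 0.37, and 0.24 without those arrays) and genes of cyclin E, cyclin A and CDK2 in 8 of 10 (median 0.48, and 0.27 without them). Among these, Cks1b, which encodes a small CDK-binding protein, was at 0.65 ± 0.14 with an adjusted p of 1.00. In the dark zone, 21 of 21 replication genes were above 0 with a median of 0.28, and 21 of 21 with a median of 0.23 with the experiment D arrays of Dzlo and Lzlo left out. Genes of G2 and mitosis were above 0 in 17 of 20 there, with a median of 0.11, but in 11 of 20 with a median of 0.02 once those arrays were left out. About as many of all genes lay above 0 as below, 49.9% in the light zone and 50.4% in the dark zone. Of the markers of other cells, 0 of 8 for T cells, 1 of 10 for neutrophils and 0 of 4 for naive or marginal zone B cells were above 0 in the light zone, with medians of -0.71, -0.98 and -0.51. Plasma cell markers were above 0 in 7 of 7, with a median of 0.11. In the dark zone the counts were 1 of 8, 4 of 10 and 2 of 4, with medians of -0.14, -0.03 and -0.06, and plasma cell markers were above 0 in 7 of 7 with a median of 0.26. None of these markers passed, and their part in the shifts was not tested.

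As a description of pattern, the 3 genes with the highest Pearson correlation to each member over the 15 arrays were taken from 9424 genes at or above the median level. Ccnd3 was most like Tcf3 (r = 0.970), which encodes the E protein E2A, then Pigt (0.942) and Rabac1 (0.937). Cdkn2c was most like Rrm1 (0.947), a ribonucleotide reductase subunit, then Kpnb1 (0.936) and Pcbp2 (0.921). Cdk4 was most like Lrrc41 (0.921), Atp5g1 (0.909) and Lsm4 (0.899). Cdkn1b was most like Sucla2 (0.966), Zfp825 (0.957) and Ptgr2 (0.949), and Rb1 was most like Vps54 (0.942), Relch (0.913) and Rbbp6 (0.905). The best matches of Ccnd2 and Cdk6 were lower, Plpp1 at 0.742 and Thumpd2 at 0.775. Among the 7 genes themselves r ran from -0.56 (Cdk4 with Rb1) to 0.70 (Cdkn1b with Rb1). Lzhi replicate 4 and Dzlo replicate 3 were low for both Cdkn1b (3.98 and 4.60) and Rb1 (4.84 and 5.63). The second Cdkn1b probe set was not low on those arrays. How far they carry the correlations of Cdkn1b and Rb1 was not tested. Arrays share experiments and groups, so these values describe the 15 arrays only.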

How the data were processed

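RNA of each sorted sample was amplified with a whole-transcript kit and put on its own array, as the labels' protocols state. The authors deposited log2 values of 28853 probe sets. The submitters' processing notes name RMA, a method that removes background, equalises quantiles between arrays and combines probes, and build mm8. The software is not given in the sources used here. Low probe sets lose contrast under RMA, amplification adds spread, and no detection calls were used.

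Of the probe sets, 21789 carried 1 symbol, 1621 several and 5443 none. For the 999 genes with more than 1 single-symbol probe set the highest mean was used, which left 19938 genes with no filter. Limma 3.58.1 was run in R 4.3.3, where lmFit and eBayes estimated 4 group means from the 15 arrays. P-values were adjusted by Benjamini-Hochberg over all genes within each comparison, with a threshold of 0.05, and errors of differences are its standard errors. The steps were tested on simulated data. Array medians lay between 5.57 and 5.74, and no pair of arrays correlated above 0.993 or was counted as 1. The number of arrays limits the precision.

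The members, lists and tests were chosen with earlier results of these data known. All 8 members are named or counted, and for each list up to the 2 genes with the smallest unadjusted p were named. Experiment codes were taken from the descriptions, with 2 spellings of code B, 1 for each zone, merged. Deviations from the group means correlated more between arrays of 1 code (mean 0.288 over 21 pairs, 16 above 0.1) than between codes (-0.08 over 63 pairs). The code was therefore used as a block in alternative fits. The main fit had no block, so its errors, intervals and p-values leave the pairing out. Motifs were searched on both strands of the 250 bases before each RefSeq start site. Figures were drawn with matplotlib 3.10.9. Alternatives changed the normalization, filter, probe set rule, variance model, weights, block, threshold and arrays.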

Additional observations from a re-analysis of the deposited data

Results flagged for a closer look

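In 21 groups of 4 arrays, 1 for each measured gene and group of that size, a single array stood apart from the others in 3. By chance the rule flags about 1 in 20 such groups, and the share flagged among all genes was not computed. The flags of Cdkn1b and Rb1 fell on the same array, so they are not separate events. Cdk6 in Lzlo replicate 4, of experiment C, was at 6.13 with its nearest neighbour at 6.77. Cdkn1b in Dzlo replicate 3, of experiment D, was at 4.60 with its nearest neighbour at 7.28. Rb1 on that same array was at 5.63 with its nearest neighbour at 6.85. The neutrophil markers of Dzlo replicate 3 averaged 7.81, the highest of its group. In Lzlo replicate 3 they averaged 8.99, with Cdkn1b at 4.73 and Rb1 at 6.58. In Lzhi replicate 4 they averaged 5.40, with Cdkn1b at 3.98 and Rb1 at 4.84, the lowest of all arrays for both genes. The part of neutrophils in these values was not tested. Lzhi has 3 arrays and was not examined in this way.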

How the results depend on the processing

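None of the 7 genes passed in any of the 6 comparisons under any alternative run at an adjusted p under 0.05. At a threshold of 0.1, tried without other changes, none passed either, while Ccnd2 between zones had an adjusted p of 0.0902 with array weights. Over the 25 differences of single genes followed, 692 of 719 values under alternatives kept their direction and 27 turned. None of the turned values was a called one. Between zones, Cdk4 was at -0.00123 with array weights, Cdkn2c at -0.0063 with the experiment block and -0.0091 with the code as written, and Cdkn1b at 0.029 by its other probe set. With arrays left out in turn, the zone difference of Cdkn2c ran from -0.022 to 0.28, of Cdk6 from -0.010 to 0.29 and of Cdkn1b from -0.83 to 0.076. For affinity in the light zone the ranges were -0.025 to 0.56 for Ccnd2, -0.996 to 0.73 for Cdkn1b and -0.63 to 0.47 for Rb1. In the dark zone they were -0.098 to 0.2998 for Cdk4, -0.27 to 0.28 for Cdk6, -0.66 to 0.39 for Cdkn1b and -0.076 to 0.43 for Rb1, and for the Ccnd2 interaction -0.43 to 0.198. For affinity, array weights gave 0.14 for Rb1 in the light zone, -0.21 for Cdkn1b in the dark zone and 0.027 for the Ccnd2 interaction. In the dark zone, Cdkn1b was at -0.66 and Rb1 at -0.076 with the experiment D arrays of Dzlo and Lzlo left out, and at -0.49 and -0.34 without that experiment. The causes were not tested. The other Cdkn1b probe set and the lists without those arrays were chosen after seeing the data.

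With the replicate number as a block (replicate block), Ccnd2 between zones was at 0.71 and 83 genes passed, against 31 without a block. There were 90 with the experiment block, 78 with it as a random block and 68 with array weights. With the code as written, where the 2 spellings of code B stay apart, 35 passed, so the count with the block depended on merging them. Left-out arrays gave 18 to 37. Same-numbered arrays deviated together less evenly (mean correlation 0.227, 15 of 21 pairs above 0.1), and numbers do not follow the code in experiments C and D. Within high affinity 1 to 11 genes passed, against 3, and within low affinity 0 to 30, against 2. In the dark zone 3 passed with every probe set tested, against 0. The intervals of Cdkn1b and Rb1 are wide enough to hold large differences in either direction, so these arrays limit what can be said of them.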
